A study of Mus musculus with 8 samples.

Results

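The genes described here build the synaptonemal complex, the meiotic chromosome axis and its cohesin, make and repair the programmed DNA breaks of meiosis, and tie chromosome ends to the nuclear envelope. They were taken by name: 36 symbols, each matched to 1 Ensembl identifier, of 56748 identifiers in the count table. All 36 passed the filter on low counts and were tested. RNA sequencing had been done on adult mouse testis in 8 libraries, 4 labelled Ak9-/- and 4 labelled WT (wild type). Ak9 encodes an adenylate kinase, an enzyme that exchanges phosphate between adenine nucleotides. The series title ties it to how sperm swim and to male fertility. The sources used here give no strain, no age beyond adult and no design of the Ak9 allele. Whether replicates were separate animals is also not said in the labels. Each p therefore sets the difference between labels against the spread among these libraries within a label, and that spread may be technical.

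In male meiosis, spermatocytes cut their DNA on purpose in leptotene, pair and zip up homologous chromosomes in zygotene, and finish crossovers in pachytene. The cuts are made on loops anchored to a protein axis that holds sister chromatids through meiosis-specific cohesin. The DNA ends then search for the homologue with a meiotic recombinase, and the synaptonemal complex closes between the paired axes like a zipper. Mutations in many of these genes arrest spermatocytes and cause infertility in mice. In what follows a gene is called early, middle or late by the stage at which its protein is known to act. The 23 early genes act from leptotene on, the 6 middle genes in synapsis, and the 7 late genes in crossover formation or at the end of prophase.

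Totals ran from 18062780 to 24415587 counts per library. Levels below are in CPM, that is counts relative to the library's total after TMM, a trimmed-mean scaling. Where 4 values of a group are given, they stand in the order of the replicate numbers 1 to 4. The libraries labelled knockout were less alike than the wild types, with Spearman correlations across genes of 0.957 to 0.977 against 0.991 to 0.993. Ak9 itself stood at 69.3, 116, 101 and 40.6 CPM under the knockout label and 108, 115, 122 and 107 under the wild-type label, which missed the test's threshold (log2 fold change -0.47, SE 0.25, edgeR adjusted p = 1.00). Its level did not follow the label in every library, so each direction given here compares labels. Labelled knockout 3 lay apart on one side of the wild types in its spermatid and Sertoli cell markers, and labelled knockouts 1 and 4 on the other. Relative to the wild-type mean on the log2 scale, the median of 14 round spermatid markers was 0.31, 0.26, -0.80 and 0.30 under the knockout label, and that of 14 Sertoli cell markers -0.24, -0.03, 0.48 and -0.43. Every marker on the pachytene spermatocyte, round and elongating spermatid and Sertoli lists had counts in all 8 libraries. Bulk RNA cannot tell fewer cells of a type from less RNA per cell.

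Expression of the meiotic genes in the libraries labelled knockout was compared with the wild types. None of the 36 passed edgeR's quasi-likelihood test, higher or lower (adjusted p = 1.00 for each). Over all 21805 genes tested, 0.0183% passed as higher and 0% as lower. At an unadjusted p under 0.05 the count was 0 of 36, where 3.04% of all genes fell under it. DESeq2 and limma-voom also called 0 of 36, with 0 at an unadjusted p under 0.05 in either, and DESeq2 called 0.157% of the genes it adjusted. The groups overlapped for each of the 36 genes, while they did not overlap for 2.30% of all genes. The log2 fold change was above 0 for 22 genes (61.1%, against 52.9% of all genes), with a median of 0.03 against 0.01 for all genes.

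The intervals bound how large a difference these libraries leave room for. All 36 intervals (95%) of the fold change lay within 2-fold in either direction, and 27 lay within 1.5-fold. The other 9 genes were Prdm9, Mei1, Mei4, Rec114, Rec8, Rad21l, Dmc1, Mnd1 and Hfm1. Mei4, Rec114 and Rad21l had the lowest wild-type CPM of the 36. Hfm1 had many more counts and differed widely among the labelled knockouts. The narrowest interval was that of Terb1, a telomere attachment gene, from -0.10 to 0.30 on the log2 scale.

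**Figure D1:**
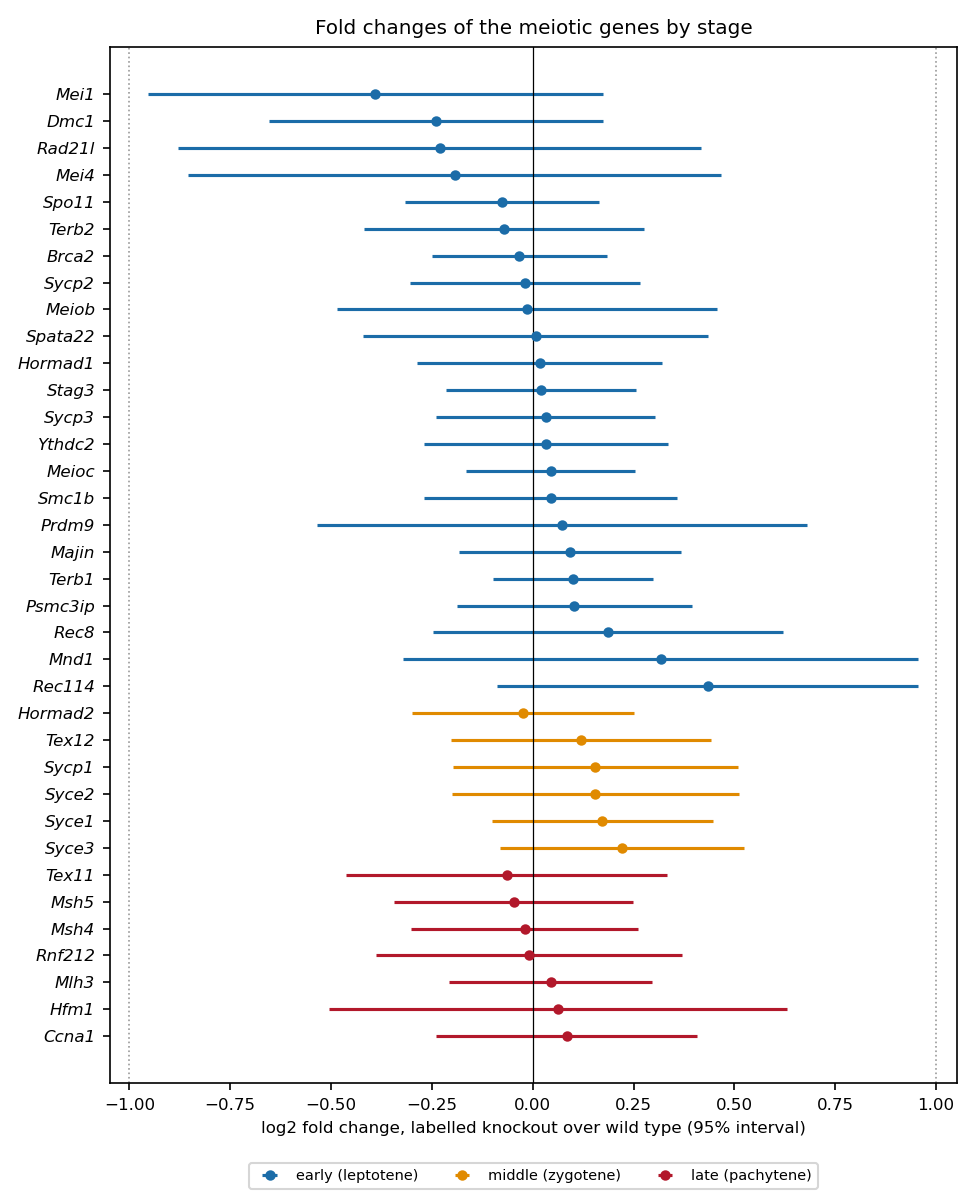
Log2 fold change of each of the 36 genes, labelled knockout over wild type (points), with its 95% interval from the edgeR fit (bars), coloured by stage. Every interval crosses 0 and lies within the dotted lines at 2-fold, and the widest belong to Mei4, Rad21l, Mnd1 and Prdm9.

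Levels between genes were compared per kilobase of annotated exon in the wild types (mean ± SD, n = 4). Syce1, a central element protein of the synaptonemal complex, was highest at 217 ± 1.16 CPM per kb, and its lowest wild type exceeded the highest of any other gene of the 36. Structural genes followed: Hormad1 at 93.2 ± 15.4, Sycp1 at 87.3 ± 14.8, Stag3 at 78.8 ± 3.01, Sycp3 at 75.3 ± 8.83, Smc1b at 75.0 ± 5.599 and Sycp2 at 74.6 ± 9.02 CPM per kb. The ranges of neighbours in this order overlapped from Hormad1 down to Syce2, so the order of neighbours is not settled there. Genes further apart in it could be separate: the lowest wild type for Hormad1, at 72.8 CPM per kb, exceeded the highest for Syce2, at 60.9. Genes of break formation lay at the bottom. Mei1 stood at 2.61 ± 0.230, Prdm9 at 1.80 ± 0.261, Rec114 at 1.64 ± 0.189 and Mei4 at 0.202 ± 0.0469 CPM per kb. Spo11, the enzyme that cuts, was an exception in this role at 23.2 ± 1.30 CPM per kb. Mei4, the lowest, rested on 11 to 23 counts per library.

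**Figure D2:**
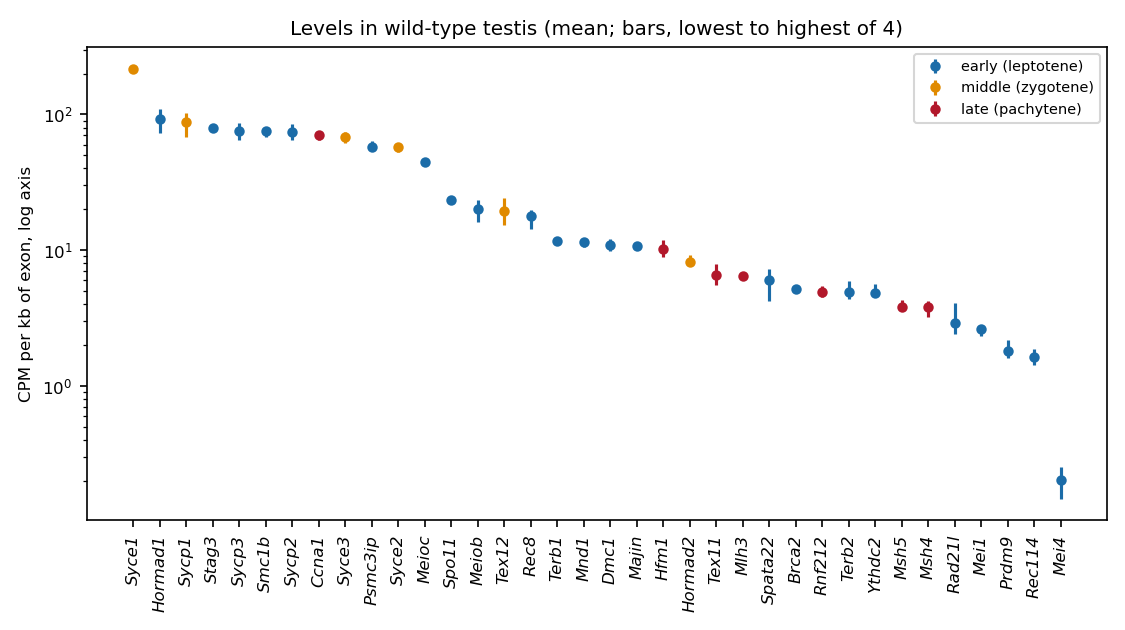
Level of each gene in wild-type testis in CPM per kb of exon on a log axis (points, mean of 4; bars, lowest to highest), in descending order and coloured by stage. Syce1 is at 217 and Mei4 at 0.202, and late genes other than Ccna1 lie at 10.1 or below.

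Break formation starts recombination. PRDM9 is a histone methyltransferase that marks where breaks fall, SPO11 makes them, and MEI1, MEI4 and REC114 are needed for SPO11 to act. Rec114 had the highest log2 fold change of the 36. It was at 2.39, 3.91, 2.91 and 2.10 CPM under the knockout label and 1.82, 2.15, 2.39 and 2.00 under the wild-type label (log2 fold change 0.43, SE 0.24, edgeR adjusted p = 1.00). Labelled knockouts 2 and 3 were above every wild type, labelled knockout 1 equalled the highest wild type to 3 digits, and labelled knockout 4 fell inside the range of the wild types. Annotated exons of Rec114 overlap those of Nptn on the other strand over 26.9% of their length (Nptn, 54.8, 66.9, 59.0 and 54.7 CPM under the knockout label), and the strand setting of the counting is not known. Mei1 had the lowest log2 fold change, at 6.63, 8.83, 15.6 and 6.59 CPM under the knockout label and 10.96, 13.2, 12.0 and 13.2 under the wild-type label (log2 fold change -0.39, SE 0.26). Labelled knockouts 1, 2 and 4 were below every wild type and labelled knockout 3 was above every one. Prdm9 ran from 5.36 CPM in labelled knockout 4 to 13.4 in labelled knockout 3, against 6.85 to 9.38 in wild types. For Spo11 and Mei4 the log2 fold changes were -0.08 and -0.19.

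**Figure D3:**
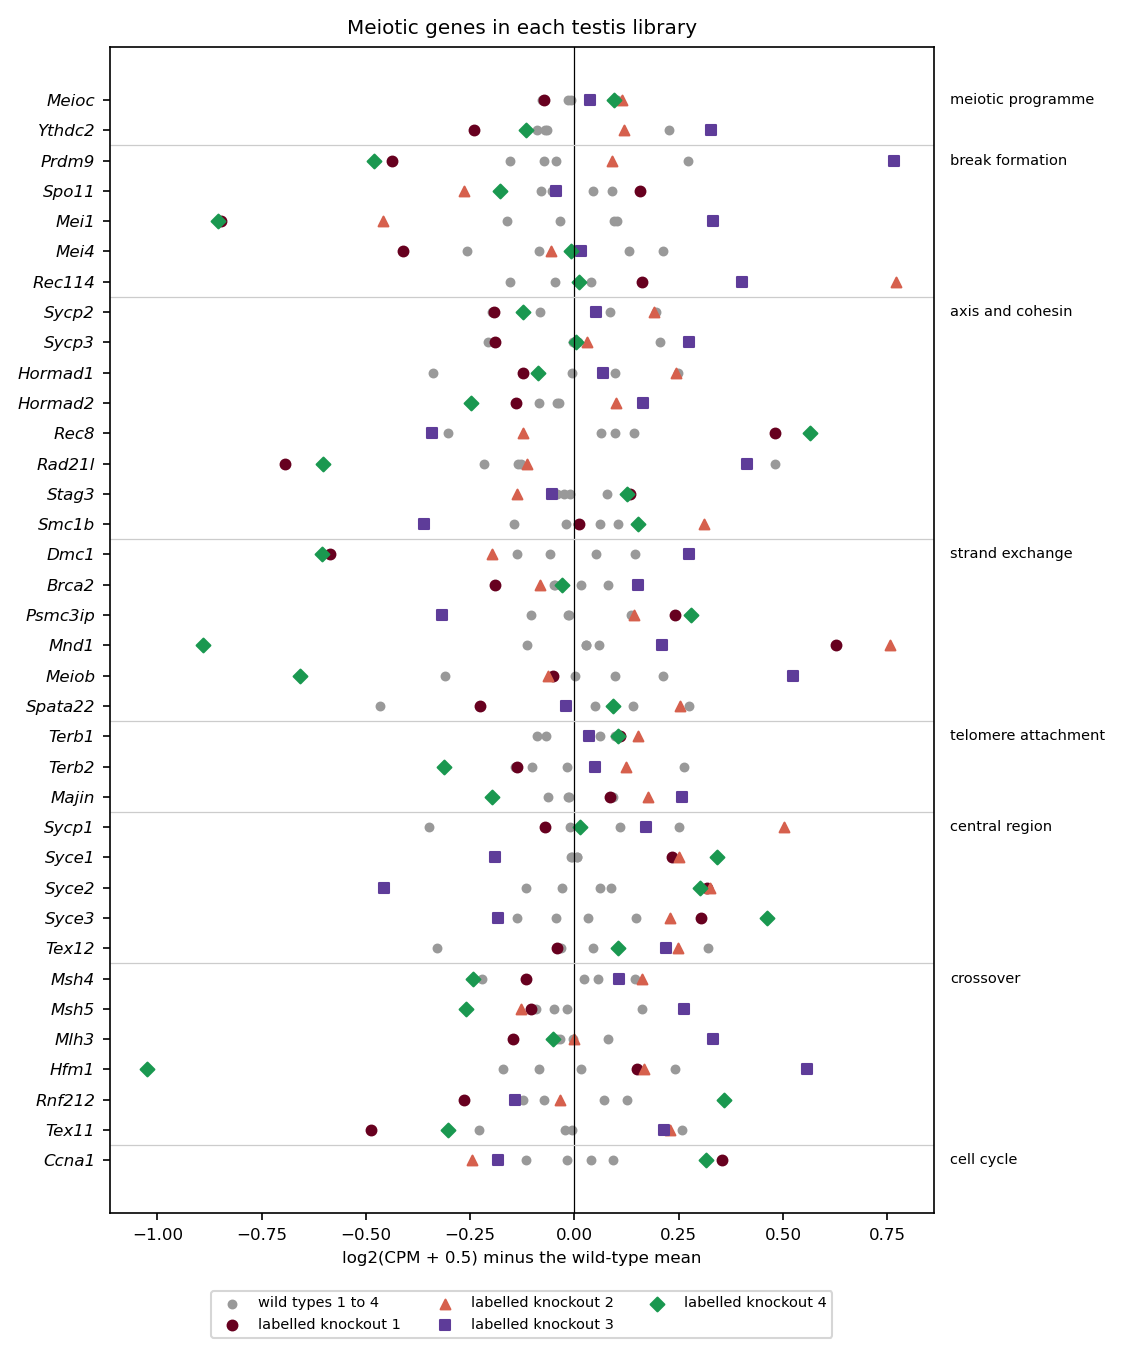
Deviation of each gene from its wild-type mean in log2(CPM + 0.5), for wild types (grey circles) and the 4 labelled knockouts (coloured symbols), with genes ordered by role. Labelled knockouts 3 (squares) and 4 (diamonds) often take opposite ends, as for Prdm9, Mei1, Meiob and Hfm1 with labelled knockout 3 high and for Syce2, Rec8 and Psmc3ip with it low.

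The axis and its cohesin carry the break machinery and later become the sides of the synaptonemal complex. SYCP2 and SYCP3 form the axial element, HORMAD1 and HORMAD2 mark unsynapsed axes, and REC8 and RAD21L are alternative kleisins that close cohesin rings with SMC1B and STAG3. The axial and HORMA-domain genes had log2 fold changes of -0.02 for Sycp2, 0.03 for Sycp3, 0.02 for Hormad1 and -0.02 for Hormad2. Gm15529, a copy 97.9% identical to Hormad1, held 7 to 20 counts per library. Over 52.2% of its annotated exon length Sycp3 overlaps Chpt1 on the other strand, which had 82.8 to 118 CPM in labelled knockouts. Of this group Rec8 had the smallest p (0.363 unadjusted). It was at 72.9, 47.7, 41.0 and 77.2 CPM under the knockout label and 55.7, 42.1, 54.4 and 57.5 under the wild-type label (log2 fold change 0.19, SE 0.20, edgeR adjusted p = 1.00). Labelled knockouts 1 and 4 were above all wild types and labelled knockout 3 was below them. Rad21l, the other kleisin, went the other way: labelled knockouts 1 and 4 were at 2.71 and 2.92 CPM, below the lowest wild type at 3.96. Labelled knockout 3 was at 6.41 CPM, within the wild-type range, which reached 6.74. Stag3 and Smc1b, among the most abundant of the 36, had log2 fold changes of 0.02 and 0.05.

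Strand exchange genes act on the resected breaks. BRCA2 loads the recombinase DMC1, the PSMC3IP and MND1 pair stimulates it, and MEIOB with SPATA22 coats single-stranded DNA. Dmc1 was at 17.5, 23.1, 32.2 and 17.3 CPM under the knockout label and 27.5, 29.4, 25.4 and 24.05 under the wild-type label (log2 fold change -0.24, SE 0.19, edgeR adjusted p = 1.00). Labelled knockouts 1, 2 and 4 were below and labelled knockout 3 above the wild types. Mnd1 was the least even of the group, at 15.8, 17.3, 11.7 and 5.19 CPM under the knockout label and 9.25, 10.2, 10.5 and 10.2 under the wild-type label (log2 fold change 0.32, SE 0.29). Labelled knockouts 1, 2 and 3 were above every wild type, and labelled knockout 4, at 51.6% of the wild-type mean, was below every one. With labelled knockouts 3 and 4 both left out, a choice made after the data were seen, Mnd1 passed the test as higher (log2 fold change 0.72, SE 0.12, edgeR adjusted p = 0.0227). In that fit, with only labelled knockouts 1 and 2 remaining, 82 of 22772 genes tested passed as higher and 52 as lower. Mnd1 was below every wild type only in labelled knockout 4, which that fit left out. Its pseudogene Mnd1-ps, 97.1% identical over 824 bases, held 0 or 1 count per library. Psmc3ip, its partner, did not share this order, with 124, 116, 84.3 and 128 CPM under the knockout label and 97.7 to 115 in the wild types. Mlx, on the other strand, covers 21.2% of its exon length and was at 6.90 to 9.57 CPM. Meiob, like Dmc1, was highest in labelled knockout 3 and lowest in labelled knockout 4, with 52.2 and 22.7 CPM. Its partner Spata22 ranged over 6.40 to 9.12 CPM in labelled knockouts and 5.34 to 9.26 in wild types. Gm49340, annotated on the same strand over 80.5% of the exon length of Spata22, held 0 to 2 counts per library. How reads that fit both genes were counted is not known, so the Spata22 counts may miss such reads. Brca2 had a log2 fold change of -0.03.

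TERB1, TERB2 and MAJIN fasten telomeres to the inner nuclear membrane so that chromosomes can be moved for pairing. Terb1 was at 47.2, 48.6, 44.8 and 47.0 CPM under the knockout label and 45.6, 46.8, 41.6 and 41.0 under the wild-type label (log2 fold change 0.10, SE 0.09, edgeR adjusted p = 1.00). Labelled knockouts 1, 2 and 4 were above every wild type and labelled knockout 3 was within their range, with an SD of 1.58 CPM among labelled knockouts and 2.86 among wild types. Terb2 and Majin had log2 fold changes of -0.07 and 0.09, and both were below every wild type in labelled knockout 4. MEIOC and YTHDC2 act together as RNA regulators that let germ cells leave the mitotic programme and carry on through prophase. Meioc was at 195, 222, 211 and 219.5 CPM under the knockout label and 195, 221, 204 and 203 under the wild-type label (log2 fold change 0.04, SE 0.10), with the groups side by side. Ythdc2 had a log2 fold change of 0.03.

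The central region closes the synaptonemal complex: SYCP1 spans the gap between the axes, and SYCE1, SYCE2, SYCE3 and TEX12 build the central element that locks it. All 5 genes had positive log2 fold changes, from 0.12 to 0.22 with a median of 0.16, and none passed the test. Each stayed above 0 under every alternative run. Syce3 was at 46.2, 43.8, 32.8 and 51.6 CPM under the knockout label and 41.4, 33.9, 36.2 and 38.2 under the wild-type label (log2 fold change 0.22, SE 0.14, edgeR adjusted p = 1.00). Labelled knockouts 1, 2 and 4 were above every wild type and labelled knockout 3 below them. Syce1 was at 372, 377, 277 and 402 CPM under the knockout label, against 315 to 318 in the wild types, and Syce2 at 141, 141, 82.1 and 139 against 104 to 119.8. Both show the same arrangement, 3 labelled knockouts above and labelled knockout 3 below the wild types. Sycp1 and Tex12 do not: for both, labelled knockout 3 was inside the wild-type range, and labelled knockout 2 alone was above it for Sycp1, at 435 CPM against at most 365.

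Each library was left out in turn. Without labelled knockout 3, the fold changes of Syce1, Syce2 and Syce3 were larger and still missed the threshold, while that of Tex12 was smaller (log2 fold change 0.08). Syce2, Syce1 and Syce3 had log2 fold changes of 0.30, 0.26 and 0.32 (edgeR adjusted p = 0.0958, 0.0984 and 0.120). Mei1 had the smallest p of the 36 in that fit, at 7.35 ± 1.28 CPM in the remaining labelled knockouts (SD, n = 3; log2 fold change -0.76, SE 0.15, edgeR adjusted p = 0.0734). For these 4 genes the adjusted p reached 1.00 under other alternatives, and these values were the smallest of all alternatives run. In all, 7 of 36 genes (19.4%) were under an unadjusted p of 0.05 without labelled knockout 3, where 19.0% of all genes were, so the share among meiotic genes was near that of all genes. They were Mei1, Syce2, Syce1, Dmc1, Syce3, Psmc3ip and Rad21l.

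Crossover genes turn a few of the exchanges into crossovers. MSH4 and MSH5 clamp the joint molecules, HFM1 is a helicase, TEX11 and RNF212 sit at sites where crossovers can form, and MLH3 belongs to the nuclease that cuts the final junctions. The 6 genes had log2 fold changes of -0.06 to 0.06. Mlh3 had the smallest p and was at 43.9, 48.6, 61.3 and 46.9 CPM under the knockout label and 47.2, 51.4, 48.5 and 47.4 under the wild-type label (log2 fold change 0.04, SE 0.11, edgeR adjusted p = 1.00). Only labelled knockout 3 was above every wild type, and labelled knockouts 1 and 4 were below. Hfm1 had the widest spread of this group, with 74.6, 75.5, 99.1 and 32.8 CPM under the knockout label and 59.5, 79.5, 67.9 and 63.3 under the wild-type label. It was at 147% of the wild-type mean in labelled knockout 3 and 48.5% in labelled knockout 4, from 2008 and 562 counts. Rnf212 reversed that order, at 7.30 and 10.6 CPM in labelled knockouts 3 and 4 against a wild-type mean of 8.14. Ccna1, cyclin A1, drives the exit from prophase and was the one cell cycle gene. It was at 164, 108, 113 and 159.8 CPM under the knockout label and 137, 118, 132 and 127 under the wild-type label (log2 fold change 0.08, SE 0.15). Labelled knockouts 1 and 4 were above all wild types, and labelled knockouts 2 and 3 below all of them. The log2 fold changes of Hfm1 and Mlh3 were below 0 once labelled knockout 3 was left out, and that of Ccna1 once labelled knockout 1 or 4 was.

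Early and late genes were then set side by side. The median log2 fold change was 0.02 for the 23 early genes, 0.16 for the 6 middle genes and -0.01 for the 7 late genes, beside 0.01 for all genes. Early minus late was 0.03. Library by library, this difference of medians was -0.01, 0.12, -0.15 and 0.16 under the knockout label and -0.04, 0.02, -0.03 and 0.00 under the wild-type label. Its sign therefore differed among the libraries labelled knockout, and no direction from early to late held across them. The early genes had medians of -0.12, 0.11, 0.07 and -0.09 relative to the wild-type mean under the knockout label and of -0.09, 0.10, -0.01 and -0.02 under the wild-type label, and the 2 ranges overlap. Late genes spread further by this median among labelled knockouts, at -0.12, 0.00, 0.21 and -0.24, against -0.05 to 0.08 in wild types. The medians of the middle genes were 0.10, 0.25, -0.01 and 0.20 in the same order under the knockout label, and -0.04 to 0.09 among wild types. By the mean over genes, early and late genes spread about alike under the knockout label. Those means were -0.10, 0.09, 0.13 and -0.16 for early genes and -0.09, 0.02, 0.16 and -0.17 for late genes. With the middle genes counted as late, early minus late was -0.04, and without Msh4, Msh5 and Tex11 among the late genes it was -0.03, so its sign depends on where the stages are divided. It was also below 0 without wild type 1 (-0.03) and without wild type 3 (-0.01).

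**Figure D4:**
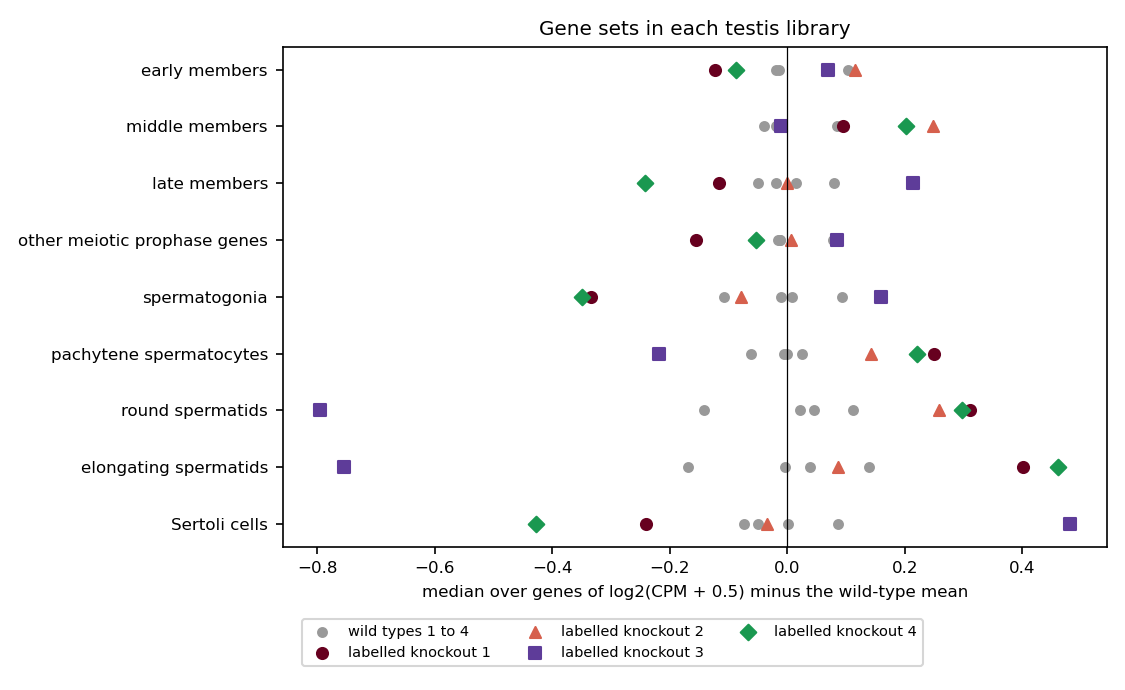
Median deviation from the wild-type mean in log2(CPM + 0.5) for early, middle and late meiotic genes and for 6 comparison lists, in wild types (grey) and labelled knockouts (coloured). Early genes lie between -0.12 and 0.11 in all libraries, while round spermatid markers reach -0.80 in labelled knockout 3.

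Spread within the groups was uneven. The SD of log2(CPM + 0.5) was larger among labelled knockouts than among wild types for 29 of the 36 genes (80.6%), against 84.9% of all genes. Its median over the 36 was 0.245 among labelled knockouts and 0.124 among wild types, beside 0.297 and 0.133 over all genes. Labelled knockout 1 was above every wild type for 11 of the 36 and below for 12, where the shares over all genes were 32.5% and 32.0%. The counts were 12 and 7 in labelled knockout 2 (26.3% and 26.4% of all genes). Labelled knockout 3 was above for 14 and below for 9 (33.5% and 36.1% of all genes), and labelled knockout 4 above for 10 and below for 16 (34.0% and 33.9%).

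Labelled knockouts 3 and 4 often lay on opposite sides of the wild types. In 11 of the 36 genes (30.6%) labelled knockout 3 was above and labelled knockout 4 below every wild type, where 18.4% of all genes did so: Ythdc2, Prdm9, Mei1, Hormad2, Dmc1, Mnd1, Meiob, Majin, Msh5, Mlh3 and Hfm1. In 9 genes (25.0%, against 20.7% of all genes) the order was the reverse: Rec8, Stag3, Smc1b, Psmc3ip, Syce1, Syce2, Syce3, Rnf212 and Ccna1. The first set holds 7 early, 1 middle and 3 late genes, and the second 4 early, 3 middle and 2 late genes, so both sets mix the stages. Mnd1 and Psmc3ip, whose proteins work as a pair, fell in different sets. The sets were formed after the libraries had been seen to lie apart, and no test was made of them. Prdm9 was at 173% and 69.3% of its wild-type mean in labelled knockouts 3 and 4, and Meiob at 143% and 62.3%. In the reverse set Rec8 was at 78.2% and 147%, and Syce2 at 72.7% and 123%.

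Marker genes of spermatocytes and of several other cell types also lay apart in these libraries. Over all genes, 33.5% were above and 36.1% below every wild type in labelled knockout 3, and 34.0% and 33.9% in labelled knockout 4. Of 15 pachytene spermatocyte markers, 2 were above and 11 below every wild type in labelled knockout 3, and 12 above and 0 below in labelled knockout 4. The 2 above in labelled knockout 3 were Piwil1, at 530 CPM against at most 493, and Mybl1, at 102 against at most 92.4. The summed level of the 15 was 8039 to 11772 CPM in labelled knockouts and 9487 to 10228 in wild types. All 14 round spermatid markers were below the wild types in labelled knockout 3, and 13 were above them in labelled knockout 4 (summed, 1018 to 2019 CPM in labelled knockouts and 1481 to 1687 in wild types). Of 17 tested spermatogonial markers, 9 were above and 2 below in labelled knockout 3, and 1 above and 10 below in labelled knockout 4 (summed, 723 to 797 CPM in labelled knockouts and 729 to 793 in wild types). Dmrtb1 held most of that sum and went the other way from most of the list. It was at 517, 441, 426 and 570 CPM under the knockout label and 449 to 493 in wild types. The sums therefore say little about the other spermatogonial markers. Of 14 Sertoli markers, 12 were above and 1 below in labelled knockout 3, and 1 above and 12 below in labelled knockout 4 (summed, 1691 to 3006 CPM in labelled knockouts and 2208 to 2490.5 in wild types). All 13 elongating spermatid markers were below in labelled knockout 3 and above in labelled knockout 4 (summed, 9459 to 23029.9 CPM in labelled knockouts and 15001 to 18694 in wild types). Of 12 Leydig cell markers, 3 were above and 3 below in labelled knockout 3, and 0 above and 11 below in labelled knockout 4 (summed, 1152 to 2289 CPM in labelled knockouts and 2102 to 2455 in wild types). Labelled knockout 1 was placed like labelled knockout 4, with 13 of 15 pachytene, 13 of 14 round and 13 of 13 elongating spermatid markers above every wild type, and 11 of 17 spermatogonial, 9 of 14 Sertoli and 7 of 12 Leydig markers below. In labelled knockout 2 the counts above were 8, 9 and 5 and those below 7, 2 and 8, in the same order of lists. Of 10 peritubular and stromal markers, 9 were above and 0 below in labelled knockout 2, 7 and 1 in labelled knockout 3, and 2 and 7 in labelled knockout 4. Of 8 endothelial markers, 1 was above and 2 below in labelled knockout 3, and 1 and 3 in labelled knockout 4. For 9 macrophage markers these counts were 0 and 3, and 1 and 6. Among these lists only the spermatogonial gene Nanos2 had a library at 0 counts. Of 10 epididymal genes only 3 were tested. Summed over all 10, the level was 233, 164, 306 and 244 CPM under the knockout label and 174 to 195 in wild types. Cst8, the highest of the 3 tested, was at 220, 156, 88.1 and 202 CPM under the knockout label. Defb30 and Rnase10 were at 2.47 and 3.11 CPM in labelled knockout 3. Most of the sum in that library therefore came from epididymal genes that were not tested. The part of all these markers in the opposite positions of the meiotic genes was not tested.

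**Figure D5:**
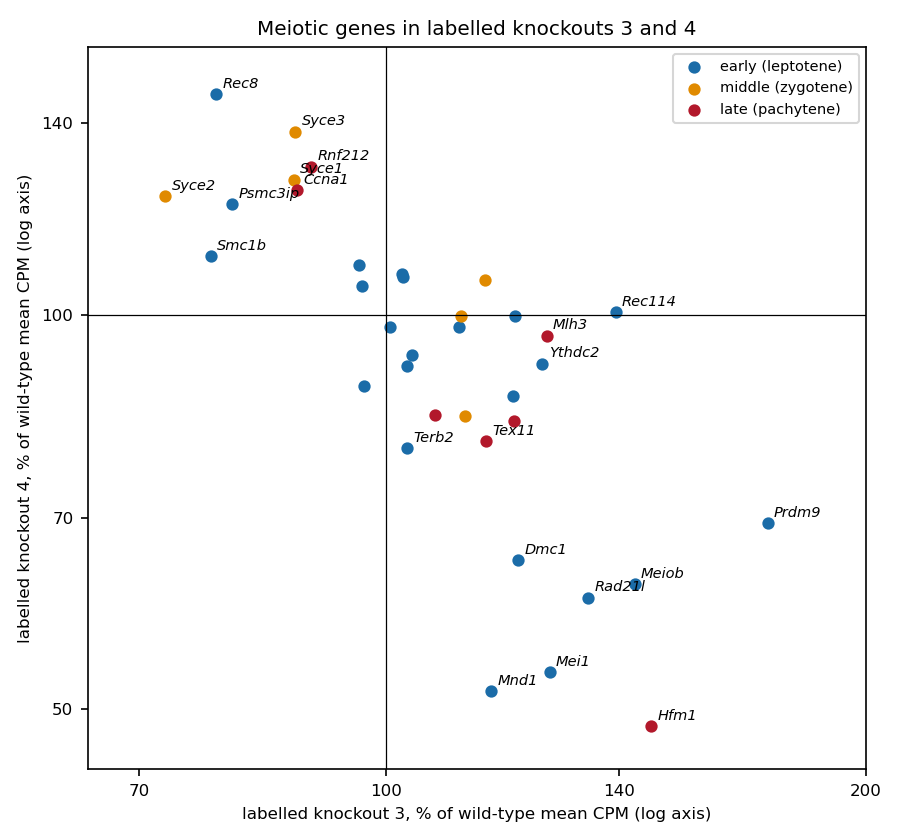
Level of each of the 36 genes in labelled knockout 3 (x axis) and labelled knockout 4 (y axis) as a percent of its wild-type mean CPM, on log axes and coloured by stage. Hfm1 (147%, 48.5%) and Rec8 (78.2%, 147%) lie towards opposite corners, and all 3 stages are mixed between them.

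Because sets of these genes shared an order across libraries, the DNA just upstream of their starts was searched for 4 motifs, on both strands. RefSeq promoter windows (GRCm38.p6) were found for 30 of the 36 genes, in 35 windows, and the 250 bases before each start were read. Of these windows, 18 held no annotated exon bases of any gene. The rest held some, and that of Stag3 was exon over all 250 bases, so some matches may lie in transcribed sequence. The letters searched were CNCCTCAG, bound by STRA8 with MEIOSIN at meiotic entry, TTCCCGC, a core of E2F sites, TAACNG, a core of MYB sites such as those of the spermatocyte factor MYBL1, and TGACGTCA, the cAMP response element. E2F6, a repressor that uses E2F sites, is known to keep meiotic genes silent outside the germ line. TTCCCGC stood in 11 of the 35 windows (31.4%), against 3.82% of all 32851 windows. These shares are over all 30 genes and not split by their order in labelled knockouts 3 and 4. The genes with TTCCCGC were Msh5 and Prdm9, high in labelled knockout 3, and Rnf212, Smc1b and Syce2, low in it. Brca2, Hormad1, Meioc, Sycp3 and Tex12 also had it and belong to neither set, so nothing is read from it about the shared order. The others stood in 5 (14.3%, against 6.42%), 12 (34.3%, against 19.8%) and 1 (2.86%, against 1.55%) for CNCCTCAG, TAACNG and TGACGTCA. The windows of these genes were richer in G and C, with a median of 59.2% against 52.4% over all windows, and some windows of 1 gene overlap each other. A match is a string of letters and not a site of binding. In 2 windows, of Prdm9 and Syce2, a TTCCCGC and a CNCCTCAG match overlap.

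The upstream sequences of some genes with opposite order in labelled knockouts 3 and 4 are printed 5′ to 3′ along the gene's own strand, ending at the base before its start, with motif matches in capitals. For Prdm9 and Syce2, which have 2 windows each, 1 is shown. The other Prdm9 window holds none of the 4 motifs, and the other Syce2 window holds CNCCTCAG, TTCCCGC and TAACNG matches, so nothing is read from a difference between the printed windows. The first 3 belong to genes that were high in labelled knockout 3 (Prdm9 at chr17:15564355-15564604, minus strand; Dmc1 at chr15:79605110-79605359, minus strand; Hfm1 at chr5:106925891-106926140, minus strand) and the other 2 to central element genes that were low in it (Syce1 at chr7:140787855-140788104, minus strand; Syce2 at chr8:84871861-84872110, plus strand).
Prdm9: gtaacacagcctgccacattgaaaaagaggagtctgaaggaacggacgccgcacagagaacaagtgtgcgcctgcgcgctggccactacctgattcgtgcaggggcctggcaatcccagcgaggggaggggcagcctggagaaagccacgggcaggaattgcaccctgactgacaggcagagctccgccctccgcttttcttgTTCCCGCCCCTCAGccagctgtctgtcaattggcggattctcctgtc
Dmc1: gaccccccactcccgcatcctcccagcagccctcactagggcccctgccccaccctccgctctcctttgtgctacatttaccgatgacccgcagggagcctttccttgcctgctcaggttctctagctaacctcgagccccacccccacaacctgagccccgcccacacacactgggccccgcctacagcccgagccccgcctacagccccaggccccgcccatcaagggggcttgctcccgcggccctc
Hfm1: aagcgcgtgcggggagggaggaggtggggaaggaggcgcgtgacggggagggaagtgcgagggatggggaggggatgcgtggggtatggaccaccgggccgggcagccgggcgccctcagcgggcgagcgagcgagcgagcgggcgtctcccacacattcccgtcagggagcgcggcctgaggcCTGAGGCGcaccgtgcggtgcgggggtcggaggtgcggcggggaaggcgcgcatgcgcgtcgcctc
Syce1: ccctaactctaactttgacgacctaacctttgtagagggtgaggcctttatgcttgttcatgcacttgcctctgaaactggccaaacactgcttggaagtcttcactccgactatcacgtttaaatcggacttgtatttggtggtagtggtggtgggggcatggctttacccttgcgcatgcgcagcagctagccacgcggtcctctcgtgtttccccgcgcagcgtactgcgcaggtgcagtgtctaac
Syce2: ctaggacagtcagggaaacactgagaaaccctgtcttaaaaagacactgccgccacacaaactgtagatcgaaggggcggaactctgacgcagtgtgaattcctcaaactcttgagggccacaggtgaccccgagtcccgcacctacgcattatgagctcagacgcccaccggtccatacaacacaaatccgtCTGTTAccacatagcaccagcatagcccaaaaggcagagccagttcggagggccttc
In the Prdm9 window the capitals are a TTCCCGC and a CNCCTCAG match that share a base. In that of Hfm1 they are a CNCCTCAG match on the opposite strand, and in that of Syce2 a TAACNG match on the opposite strand. The Dmc1 and Syce1 windows hold none of the 4, which says only that these letters are not in these bases.

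A list of 50 other prophase genes, among them Stra8, Trip13, Hsf2bp and Sun1, was looked at in the same way. All 50 were tested, 24 had a log2 fold change above 0 and 26 below, and the median was 0.00. edgeR, DESeq2 and limma-voom called 0 of them, and 0 had an unadjusted edgeR p under 0.05. The 3 with the smallest p were Plk1, Brip1 and Meikin. Plk1, a kinase that drives the exit from prophase, was at 93.7, 56.7, 54.5 and 86.8 CPM under the knockout label and averaged 63.3 ± 3.02 CPM (SD, n = 4) under the wild-type label (log2 fold change 0.20, SE 0.17). Brip1, a DNA helicase, was at 7.26, 11.8, 8.68 and 7.75 CPM under the knockout label and averaged 10.2 ± 0.978 CPM (SD, n = 4) under the wild-type label (log2 fold change -0.20, SE 0.18). Meikin, a kinetochore protein of the first division, was at 14.1, 21.95, 15.7 and 20.4 CPM under the knockout label and averaged 16.0 ± 0.487 CPM (SD, n = 4) under the wild-type label (log2 fold change 0.17, SE 0.15). For Plk1, labelled knockouts 1 and 4 were above and labelled knockouts 2 and 3 below the wild types, the arrangement seen for Ccna1. Of the 50 genes, 15 were above in labelled knockout 3 and below in labelled knockout 4, where 18.4% of all genes were, and 9 were the reverse, where 20.7% of all genes were.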

How the data were processed

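RNA sequencing of adult mouse testis had 4 libraries per genotype. Testis RNA came from a TRIzol extraction with a DNase step and went into TruSeq libraries, per the labels' protocols. The authors deposited raw counts per Ensembl gene. The tools named are STAR, Trimmomatic, DESeq2 and featureCounts, with the builds mm39 and GRCm39, per the submitters' processing notes. The sources used here give no version, annotation, strand setting or treatment of multi-mapped reads. No column was left without a sample (0). Of 56748 identifiers, 52073 had a symbol in GENCODE M21 (GRCm38), which was used for names, exon lengths, overlaps and copies (blastn 2.17.0, 95% identity over 80% of the shorter transcript and at least 200 bases), never for positions of counts.

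Genes were kept by filterByExpr (minimum count 10, minimum total 15; 21805 genes). edgeR 4.0.16 (R 4.3.3) with TMM and the quasi-likelihood test compared the labels across all genes, adjusted by Benjamini-Hochberg, called at 0.05. The SE was taken from the fold change and the square root of its F statistic, and intervals from the fit's t distribution. A count of 0 allows up to 0.123 to 0.166 CPM (3 counts, 95%, counting error only). The fit was checked on simulated counts. No library copied another (chi-square per gene of at least 4.61). Deviations are in log2(CPM + 0.5).

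The genes, lists and stages were chosen with earlier results of these data known. Values in every library are given for the gene with the smallest p of each role, the highest and lowest log2 fold changes and Ccna1. Further genes, the 2 opposite sets and the printed sequences were chosen after their values were seen. Alternatives were DESeq2 1.42.0, limma-voom (limma 3.58.1), RLE factors, total counts, no filter, a filter at a mean of 1 CPM, a replicate block, each library left out, and, added after the data were seen, labelled knockouts 3 and 4 left out together.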

Additional observations from a re-analysis of the deposited data

Results flagged for a closer look

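In 78 groups of 4 libraries examined for a library far from the other 3 (36 genes and 3 stage medians in both groups), 3 stood out, and chance gives about 1 in 20. Syce2, of the central element, was at 82.1 CPM in labelled knockout 3, while the median of the other labelled knockouts was 141. Ythdc2, an RNA regulator of meiotic entry, was at 50.3 CPM in wild type 2 against a median of 40.9 in the other wild types. Rad21l, a meiotic kleisin, was at 6.74 CPM in wild type 2 against 4.22.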

How the results depend on the processing

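No meiotic gene or other prophase gene passed with RLE factors, total counts, no filter, a filter at a mean of 1 CPM, DESeq2, limma-voom, the replicate block or any single library left out. Signs depend on the libraries: up to 10 of the 36 log2 fold changes took the other sign when 1 library was left out (without labelled knockout 4), and 4 with total counts. With labelled knockouts 3 and 4 left out together, a choice made after seeing the data, 1 meiotic gene passed as higher: Mnd1 (log2 fold change 0.72, SE 0.12, edgeR adjusted p = 0.0227). Of 22772 genes tested in that fit, 82 were higher and 52 lower. Leaving out single libraries gave medians of -0.05 to 0.06 for early and -0.08 to 0.04 for late genes, and early minus late of -0.03 to 0.03. Over all genes, 4 passed as higher and 0 as lower, against 16 and 10 without the filter, 27 and 21 with DESeq2, and 5 and 1 with total counts. Leaving out single libraries gave 3 to 23 higher and 0 to 24 lower, namely 9 and 24 without labelled knockout 1, 23 and 12 without labelled knockout 3, and 14 and 19 without labelled knockout 4. The cause was not tested. Whether the shared replicate numbers pair the libraries is not known. Correlations of same-numbered deviations were -0.05 to 0.13, and 2 of 4 labelled knockouts correlated best with their own number, which cannot decide it. With the replicate block 4 genes passed as higher and 0 as lower. Depth limits Mei4, at 11 to 23 counts per library.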
